A study of Mus musculus with 30 samples.

Results

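The response of sorted mouse hematopoietic stem cells (HSC) to loss of Mettl3 was described from the 6 libraries that the labels assign to HSC, 3 from Mettl3KO mice and 3 from WT mice, out of the 30 samples of the series. The other 24 samples were 18 bulk RNA-seq libraries of the multipotent progenitor populations MPP1, MPP2 and MPP4, with 3 Mettl3KO and 3 WT libraries each, and 6 single-cell libraries that were not used here. Mettl3KO mice carried Mx1-Cre and 2 floxed Mettl3 alleles (Mx1-Cre; Mettl3 fl/fl), and WT mice carried the same floxed alleles without Cre (Mettl3 fl/fl). Both genotypes had received pIpC, a synthetic double-stranded RNA, and bone marrow cells were taken 3 weeks after it. Mx1-Cre is driven by an interferon-induced promoter, so that Cre is made in every cell type that answers interferon and not in HSC alone. HSC were sorted as Lin-;Sca1+;c-Kit+;CD150+;CD48- cells. The labels assign the 3 replicates of a group to different mice, and do not say whether 1 mouse gave cells to several populations.

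Mettl3 is the methyltransferase of a nuclear complex that writes m6A, a methyl mark on adenosines inside messenger RNA. Reader proteins bind the mark, and among them the Ythdf proteins are known for steering marked RNA to decay. HSC are rare, mostly resting cells of the bone marrow that renew themselves and give rise to all blood lineages. MPP populations divide more often and lean toward single lineages, MPP2 toward megakaryocytes and red cells and MPP4 toward lymphoid cells.

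The HSC libraries held 33012524 to 55276836 counts, and levels are given as CPM, the count of a gene scaled to 1 common library size. The sort labels were checked against the genes of the surface proteins used in the gate. Slamf1, which encodes CD150, had 49.8 to 62.6 CPM in Mettl3KO HSC and 15.6 to 38.3 CPM in WT HSC, against 1.95 to 4.22 CPM in Mettl3KO MPP1 and 2.1 to 3.42 CPM in WT MPP1. Cd48 had 6.89 to 13.5 CPM in Mettl3KO HSC and 5.58 to 10.4 CPM in WT HSC, against 226 to 254 CPM in Mettl3KO MPP4 and 163 to 225 CPM in WT MPP4. Procr, the stem cell protein C receptor, had 62.9 to 84.6 CPM in Mettl3KO HSC and 72.5 to 92.8 CPM in WT HSC, so the genotypes overlapped. The ribosomal RNA precursor Rn45s took 5.49% of the counts in Mettl3KO replicate 2 and 1.77% to 2.60% in the other HSC libraries. Relative to their group means, longer transcripts ran high in Mettl3KO replicate 1 and WT replicate 2 (Spearman correlation with length of 0.46 and 0.48 across 13787 genes) and low in the other 4 libraries (-0.27 to -0.34). Each genotype holds 1 of these 2 libraries. The number of genes called, the differences between responses and the exon trend are also given below without both.

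Mettl3 itself (chromosome 14, 52294841 to 52305128, minus strand, 11 exons, GRCm38) had 14.4, 17.2 and 11.6 CPM in the Mettl3KO libraries, against 36.5, 31.5 and 42.5 CPM in the WT libraries. The genotypes did not overlap, and the log2 fold change of Mettl3KO over WT was -1.35 ± 0.18 (SE, 3 libraries each, edgeR quasi-likelihood test, Benjamini-Hochberg adjusted p = 1.3e-04). Values given in this form below are log2 fold changes with their SE from the same test, and "rose" and "fell" are kept for an adjusted p under 0.05. The RNA was thus lower and not gone, and the labels do not name the deleted exons, so reads from exons that remain are counted too. Myc, a transcription factor that drives growth and whose RNA carries m6A, had 1259.8, 990.2 and 1140.4 CPM in the Mettl3KO libraries, against 1684, 1861 and 1725 CPM in the WT libraries. Its Mettl3KO libraries all lay below its WT libraries, yet the change of -0.64 ± 0.20 missed the threshold (adjusted p = 0.067), and DESeq2 gave an adjusted p of 0.016. Myc was among 166 of 11720 well-measured genes whose counts were even in all 24 bulk libraries, and its counting error may be larger than its counts imply.

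Across the transcriptome, 956 of 15545 genes tested (6.15%) passed an adjusted p of 0.05 in HSC. Higher in Mettl3KO were 569 genes (3.66%) and lower 387 (2.49%), and 333 rose and 259 fell at least 2-fold. Counts of the gene lists below are to be read against these shares of 3.66% higher and 2.49% lower. The 3 Mettl3KO and 3 WT libraries did not overlap for 932 of the 956, where 24% of all genes tested showed no overlap. The genes were called from these same libraries, so the separation follows largely from the call and is no separate evidence for it. The typical change was moderate, with a median of 1.15 for the absolute log2 fold change of the genes called, and the median log2 fold change of all genes was 0.00. The size of the list rested on single libraries. It was 454 genes without Mettl3KO replicate 3, 506 without Mettl3KO replicate 2, 554 without WT replicate 2 and 624 without WT replicate 1, against 1275 without Mettl3KO replicate 1 and 683 without WT replicate 3. A core of 339 genes (213 higher and 126 lower) passed in all 6 of these fits, and for a gene named below that did not, the libraries whose removal ended its call are given with the adjusted p, or the number of fits where it was lost in all or nearly all. Of genes named below that passed in all 6, Blnk (0.12), Cebpa (0.059), Imp3 (0.064), Rrs1 (0.052) and Satb1 (0.11) missed the threshold in a fit of the HSC libraries alone, with the adjusted p in parentheses. Without Mettl3KO replicate 1 and WT replicate 2 together, 716 genes passed. Cd74 (0.099), Trib2 (0.066) and Tlr7 (0.070), which passed in all 6 fits, missed the threshold there, with the adjusted p in parentheses. With 3 mice against 3, an exact two-sided permutation test of a single gene cannot go below 0.1, so calls rest on the model fitted across all genes.

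**Figure D1:**
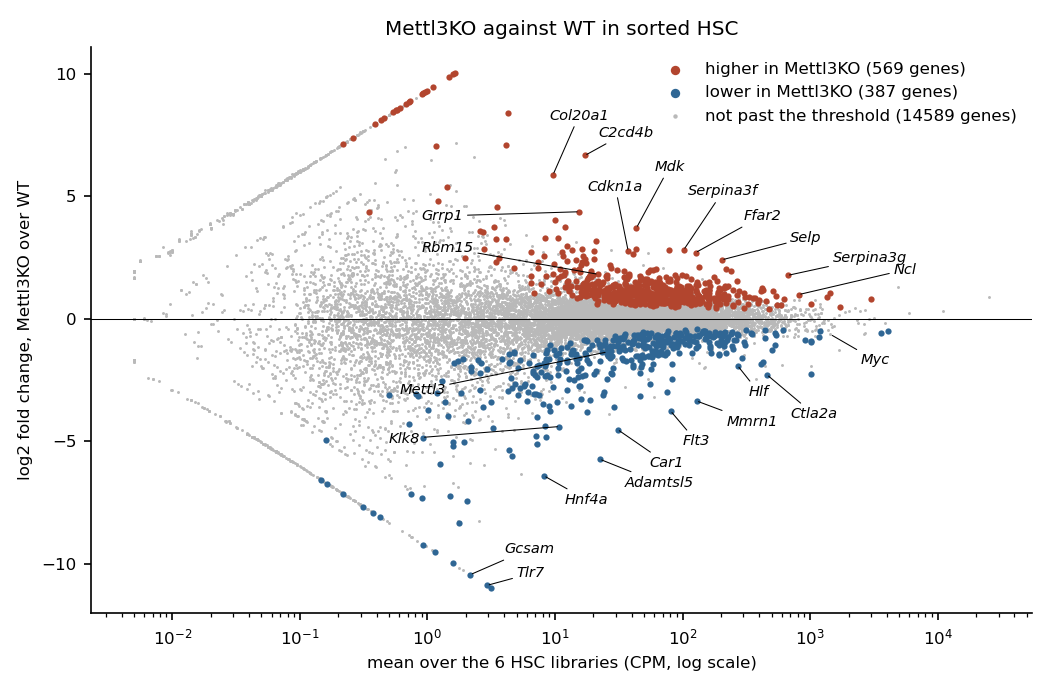
Each point is 1 of 15545 genes, with its mean level over the 6 HSC libraries in CPM (log axis) and its log2 fold change of Mettl3KO over WT. Red points are the 569 genes higher and blue points the 387 genes lower in Mettl3KO at an adjusted p under 0.05, and the straight edges at the left hold genes with 0 counts in 1 genotype, whose fitted folds depend on the prior count.

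Among abundant genes, the largest falls were in genes by which stem cells are known. Hlf, a transcription factor of the PAR bZIP family that marks HSC, had 133, 106 and 102 CPM in the Mettl3KO libraries, against 429, 491 and 361 CPM in the WT libraries (-1.91 ± 0.22, adjusted p = 2.8e-05). Its highest Mettl3KO library lay far below the lowest WT library. Mmrn1, which encodes the factor V binding protein multimerin (chromosome 6, 60924976 to 60989378, plus strand), had 43.7, 21.3 and 3.66 CPM in the Mettl3KO libraries, against 167, 269 and 268 CPM in the WT libraries (-3.35 ± 0.58, adjusted p = 0.0013), so the Mettl3KO libraries differed widely among themselves and still lay apart from WT. Mmrn1 is one of the genes with only even counts. Ctla2a, an inhibitor of cathepsin proteases, had 109, 206 and 154 CPM in the Mettl3KO libraries, against 488, 664 and 1134 CPM in the WT libraries (-2.29 ± 0.38, adjusted p = 7.8e-04).

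The other abundant falls were smaller. Tsc22d3, the glucocorticoid-induced leucine zipper protein, had 188, 184 and 205 CPM in the Mettl3KO libraries, against 381, 977 and 632 CPM in the WT libraries (-1.78 ± 0.34, adjusted p = 0.0028). Cd37, a tetraspanin of leukocytes, had 93.4, 91.4 and 122 CPM in the Mettl3KO libraries, against 298, 317 and 229 CPM in the WT libraries (-1.46 ± 0.20, adjusted p = 1.3e-04). Rab37, a small GTPase of vesicle transport, had 112, 76.6 and 129.6 CPM in the Mettl3KO libraries, against 263, 275 and 312 CPM in the WT libraries (-1.42 ± 0.25, adjusted p = 0.0014). None of these 3 genes overlapped between genotypes. Cd74 is described below with its complex. The immediate early gene Ier2 fell by 1.86 on the log2 scale, a call lost without Mettl3KO replicates 1 (0.085), 2 (0.081) and 3 (0.14) and WT replicate 3 (0.21). Dusp2, a phosphatase of MAP kinases, fell by 1.41 and lost its call without Mettl3KO replicates 1 (0.087), 2 (0.16) and 3 (0.1) and WT replicates 2 (0.09) and 3 (0.16).

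The surface genes that are used to tell stem cells from progenitors moved in both directions. Of 26 such genes tested, 7 fell and 1 rose (median log2 fold change 0.14, against 0.00 over all genes), and leaving out 1 library left 5 or 6 that fell. Flt3, the receptor that marks MPP4 and is low on the most primitive cells, had 15.3, 10.5 and 7.19 CPM in the Mettl3KO libraries, against 168, 228 and 54.4 CPM in the WT libraries, a fall of 3.77 ± 0.45 (adjusted p = 4.6e-05). Emcn, a sialomucin of HSC and endothelium, had 8.04, 13.1 and 7.94 CPM in the Mettl3KO libraries, against 51.6, 39.5 and 47.8 CPM in the WT libraries (-2.26 ± 0.43, adjusted p = 0.003). Cd34, a sialomucin of progenitors, had 380.4, 202 and 314 CPM in the Mettl3KO libraries, against 861, 802 and 477 CPM in the WT libraries (-1.25 ± 0.27, adjusted p = 0.0068), and the call was lost without Mettl3KO replicate 2 (0.053). Cd27, a receptor of the tumor necrosis factor family, fell by 0.94 on the log2 scale, lost without WT replicate 1 (0.051), and Alcam, an adhesion molecule, by 1.45, lost without Mettl3KO replicate 3 (0.1) and WT replicate 2 (0.094). Clec1a, a C-type lectin, fell too, at -3.40 ± 1.00, and its call ended in each of the 6 fits that left out a library. The single rise was in Itga6, the integrin alpha 6 chain, which had 482, 358 and 401 CPM in the Mettl3KO libraries, against 178, 211 and 203 CPM in the WT libraries (1.07 ± 0.19, adjusted p = 0.0015).

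Of the genes that encode the gate's positive and negative surface proteins, Slamf1, Kit, Ly6a and Cd48, 0 passed by edgeR. Slamf1 had 50.1, 62.6 and 49.8 CPM in the Mettl3KO libraries, against 18.9, 15.6 and 38.3 CPM in the WT libraries (1.16 ± 0.50, adjusted p = 0.19), with all 3 Mettl3KO libraries above the WT libraries. Kit had 849.7, 253 and 411 CPM in the Mettl3KO libraries, against 699, 1137 and 604 CPM in the WT libraries, which overlapped (-0.69 ± 0.47, adjusted p = 0.43). Ly6a, which encodes Sca1, had 889, 1660.0 and 1776 CPM in the Mettl3KO libraries, against 1046, 851 and 966 CPM in the WT libraries, which overlapped (0.60 ± 0.24, adjusted p = 0.16), and Cd48 overlapped too (0.50 ± 0.33, adjusted p = 0.42). Procr, which the gate did not use, stood at -0.13 ± 0.28 (adjusted p = 0.85). In bulk RNA, fewer cells of a kind and less RNA per cell cannot be told apart, for these genes and all that follow.

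Among 33 transcription regulators of stem cells, Hlf was 1 of 3 that fell, and the list's median was -0.14. The other two, Hoxa9 (-0.69 ± 0.20) and the LIM domain cofactor Lmo2 (-0.59 ± 0.17), lost their calls in each of the 6 fits that left out a library, and 1 gene of the list fell without Mettl3KO replicate 2 or WT replicate 1, 2 or 3. Mecom, a zinc finger regulator that HSC depend on, had 87.9, 64.2 and 49 CPM in the Mettl3KO libraries, against 52.8, 68.6 and 63.8 CPM in the WT libraries (0.12 ± 0.32, adjusted p = 0.89).

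The largest rises among abundant genes included a pair of serine protease inhibitors from 1 gene cluster. Serpina3g (chromosome 12, 104236245 to 104241939, plus strand) had 927, 1021 and 1138 CPM in the Mettl3KO libraries, against 317, 232 and 355 CPM in the WT libraries (1.77 ± 0.21, adjusted p = 3.2e-05), which made it one of the most abundant RNAs that rose. Its neighbor Serpina3f (chromosome 12, 104214544 to 104221129, plus strand) had 164, 195 and 176 CPM in the Mettl3KO libraries, against 16.4, 28.5 and 31.3 CPM in the WT libraries (2.81 ± 0.42, adjusted p = 3.5e-04). The cluster holds close copies, and reads that fit several of them may have been split. Selp, the adhesion molecule P-selectin, had 377, 309.8 and 340.3 CPM in the Mettl3KO libraries, against 59.9, 78.3 and 55.4 CPM in the WT libraries (2.41 ± 0.29, adjusted p = 4.6e-05). Ffar2, a receptor for short-chain fatty acids, had 147, 279 and 232 CPM in the Mettl3KO libraries, against 24.1, 51.2 and 25.7 CPM in the WT libraries (2.70 ± 0.37, adjusted p = 1.5e-04). In each of these genes the lowest Mettl3KO library stood well above the highest WT library.

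Rises of similar size were found in Mfsd5, a membrane transporter (chromosome 15, 102279454 to 102281754, plus strand), with 209, 199.5 and 246 CPM in the Mettl3KO libraries, against 52.7, 53.8 and 44.8 CPM in the WT libraries (2.11 ± 0.19, adjusted p = 3.0e-06). Nxt1, a cofactor of messenger RNA export, had 228, 425 and 395 CPM in the Mettl3KO libraries, against 92.2, 52.5 and 111 CPM in the WT libraries (2.03 ± 0.28, adjusted p = 1.6e-04). Lsm10, a component of the U7 particle that processes histone messages, had 111, 221 and 191 CPM in the Mettl3KO libraries, against 61.2, 41.6 and 67.8 CPM in the WT libraries (1.62 ± 0.27, adjusted p = 9.0e-04). These genes did not overlap between genotypes, and in Nxt1 and Lsm10 replicate 1 was the lowest Mettl3KO library. Fam212a (1.95 ± 0.26) and Mrpl43, of the mitochondrial ribosome (1.75 ± 0.28), passed in all 6 fits that left out a library. Plac8, a small cysteine-rich protein of myeloid and lymphoid progenitors, rose by 1.73 and lost its call without Mettl3KO replicate 3 (0.069) and WT replicates 2 (0.07) and 3 (0.051).

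**Figure D2:**
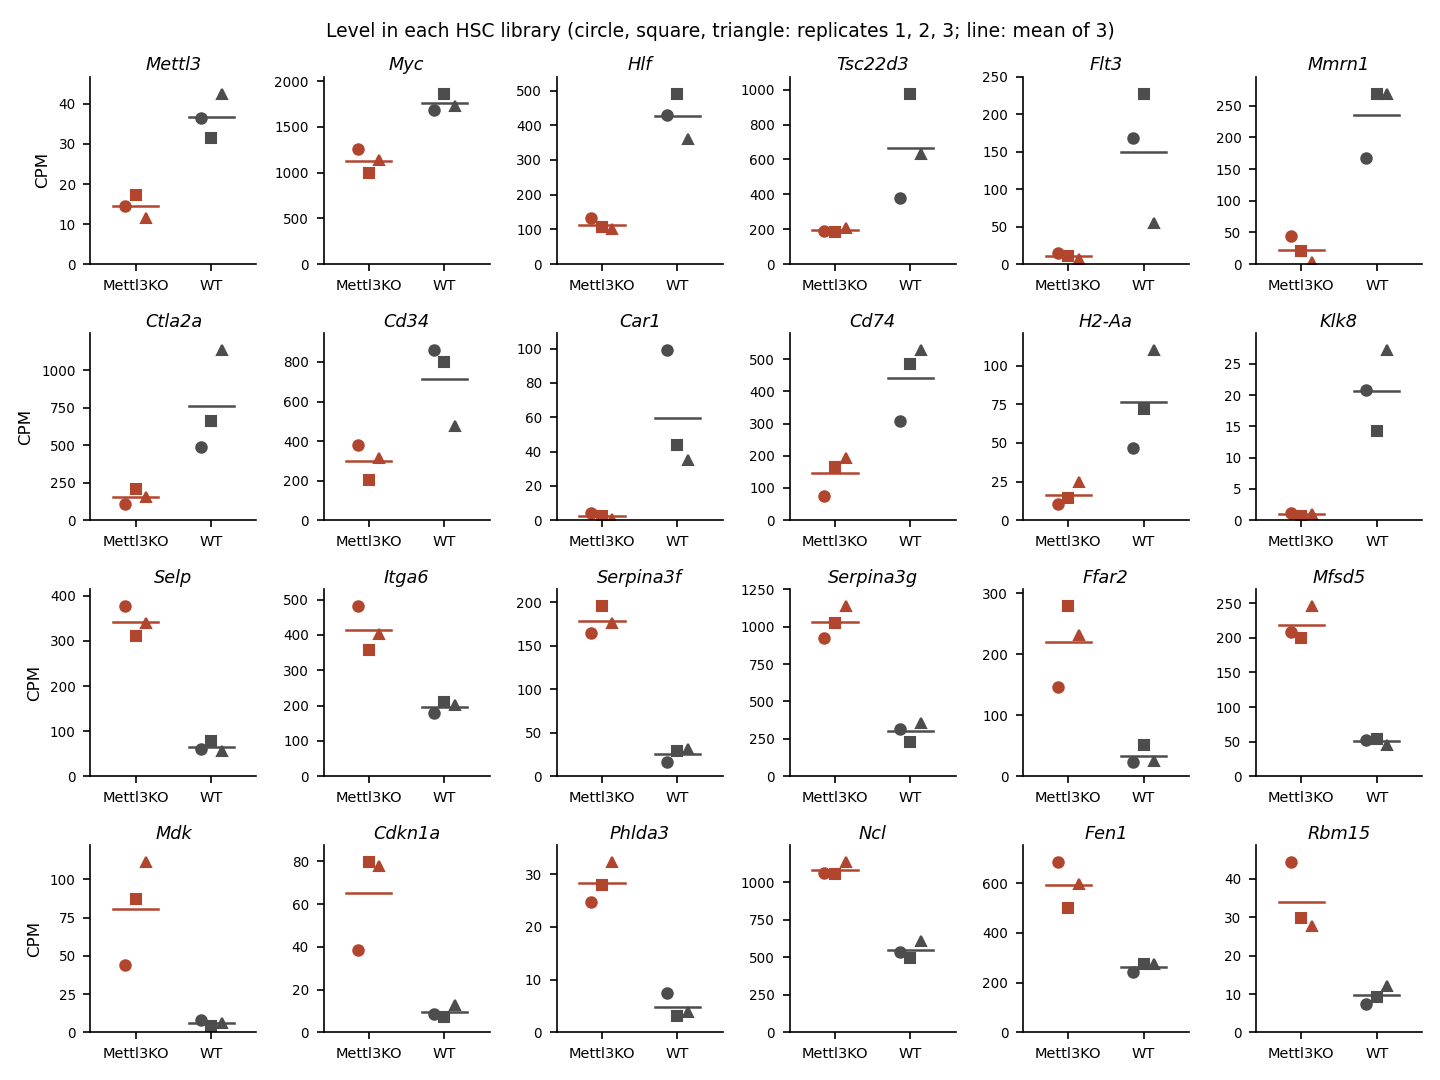
Levels in CPM of 24 named genes in each HSC library, Mettl3KO at the left and WT at the right of each panel, each panel with its own axis from 0. Circles, squares and triangles are replicates 1, 2 and 3 and lines are means of 3, and no panel shows an overlap of the genotypes, Myc included, whose change missed the threshold.

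Larger folds were seen in genes of lower level. Mdk, the growth factor midkine, had 44, 87.1 and 111 CPM in the Mettl3KO libraries, against 7.95, 4.29 and 6.29 CPM in the WT libraries (3.71 ± 0.48, adjusted p = 9.2e-05). C2cd4b, a C2 domain protein, had 10.6, 59.6 and 31.7 CPM in the Mettl3KO libraries, against 0, 0 and 1.02 CPM in the WT libraries (6.67 ± 1.27, adjusted p = 0.0035), and Col20a1, a collagen chain, had 13, 30.01 and 13.9 CPM in the Mettl3KO libraries, against 0.0775, 0.761 and 0.118 CPM in the WT libraries (5.88 ± 1.07, adjusted p = 0.0019). WT HSC thus held little or no RNA of C2cd4b and Col20a1. Grrp1 (4.37 ± 0.57), Spef1 (4.03 ± 0.69), Tmem82 (3.29 ± 0.74) and Tnfaip8l1 (3.18 ± 0.41) rose and passed in all 6 fits that left out a library. Mpv17l (3.73 ± 0.92) was lost without Mettl3KO replicate 3 (0.058) and WT replicates 1 (0.08) and 3 (0.065), Olfm1 (3.30 ± 0.96) without Mettl3KO replicates 2 (0.16) and 3 (0.094) and WT replicates 1 (0.14), 2 (0.13) and 3 (0.13), and Rufy4 (2.96 ± 0.69) without Mettl3KO replicate 3 (0.052) and WT replicate 2 (0.064).

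In the opposite direction, Hnf4a, a nuclear receptor best known from liver and gut, had 0.304, 0.18 and 0.0555 CPM in the Mettl3KO libraries, against 15.1, 24.2 and 9.41 CPM in the WT libraries (-6.42 ± 0.87, adjusted p = 1.4e-04). Adamtsl5, a secreted matrix protein, had 1.06, 0.42 and 0.971 CPM in the Mettl3KO libraries, against 40.5, 39.1 and 52.6 CPM in the WT libraries (-5.73 ± 1.16, adjusted p = 0.0048). Klk8, a serine protease of the kallikrein family, had 1.15, 0.72 and 1.05 CPM in the Mettl3KO libraries, against 20.7, 14.2 and 27.2 CPM in the WT libraries (-4.40 ± 0.45, adjusted p = 1.3e-05). These 3 genes were measured clearly in each WT library and had at most 1.15 CPM in any Mettl3KO library. Trib2, a pseudokinase that promotes decay of the myeloid factor Cebpa, had 0.506, 1.23 and 0.0278 CPM in the Mettl3KO libraries, against 17.6, 19 and 13.1 CPM in the WT libraries (-4.82 ± 1.08, adjusted p = 0.0095). Falls in Ddx4, an RNA helicase of germ cells (-4.78 ± 1.14), the sphingosine kinase Sphk1 (-5.12 ± 1.32), Slc27a6 (-4.38 ± 1.26), Aire (-3.81 ± 1.09) and Chad (-4.01 ± 1.12) rested on single libraries. Ddx4 was lost without Mettl3KO replicates 2 (0.074) and 3 (0.083) and WT replicate 1 (0.06), Sphk1 without Mettl3KO replicates 1 (0.054), 2 (0.063) and 3 (0.1) and WT replicate 1 (0.054), Slc27a6 without Mettl3KO replicates 2 (0.15) and 3 (0.099) and WT replicates 1 (0.096), 2 (0.091) and 3 (0.083), Aire without Mettl3KO replicates 2 (0.16) and 3 (0.1) and WT replicates 1 (0.073), 2 (0.094) and 3 (0.065), and Chad in each of the 6 fits.

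A further 12 genes called lower had no count in any Mettl3KO library, and 20 called higher had none in any WT library. Folds are then lower bounds, computed with a floor of 3 counts summed over the 3 libraries. Gcsam, a signaling adaptor of germinal center B cells, had 0, 0 and 0 CPM in the Mettl3KO libraries, against 5.31, 3.04 and 4.68 CPM in the WT libraries, and was at least 187-fold lower. Tlr7, a sensor of single-stranded RNA, had 0, 0 and 0 CPM in the Mettl3KO libraries, against 4.36, 12.6 and 0.709 CPM in the WT libraries, and was at least 258-fold lower. Vip, a neuropeptide gene chosen here because its bound was the highest among the rises, had 2.11, 5.7 and 2.08 CPM in the Mettl3KO libraries, against 0, 0 and 0 CPM in the WT libraries, and was at least 143-fold higher. These levels of a few CPM are low beside those of the genes above.

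Some genes that prime HSC for lymphoid fates fell. Of 21 tested, 6 fell (median -0.69, against 0.00 over all genes), with 4 to 8 falling when 1 library was left out, and Flt3, Dntt and Satb1 passed in all of those fits. Dntt, the template-free polymerase of antigen receptor rearrangement, had 2.87, 3.27 and 2.94 CPM in the Mettl3KO libraries, against 52.4, 27.5 and 7.45 CPM in the WT libraries (-3.27 ± 0.53, adjusted p = 7.0e-04). Satb1, a chromatin organizer that promotes lymphoid fate, had 22.9, 2.67 and 20.2 CPM in the Mettl3KO libraries, against 108, 149.9 and 28.3 CPM in the WT libraries (-2.64 ± 0.57, adjusted p = 0.0071). WT replicate 3 was the lowest WT library for Flt3, Dntt and Satb1, and still lay above every Mettl3KO library. Lck (-1.24 ± 0.36) was lost in each fit that left out a library, and Rag2 (-3.12 ± 0.75), at most 1.52 CPM in any HSC library, without Mettl3KO replicates 2 (0.065) and 3 (0.067) and WT replicate 2 (0.081). Il7r, the interleukin 7 receptor, had at most 0.03 CPM in any HSC library and did not pass.

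Some erythroid genes fell too. Of 25 tested, 6 fell (24%, against 2.49% of all genes, median -0.88). But only 1 did without Mettl3KO replicate 2, 2 without Mettl3KO replicate 3 or WT replicate 1 and 3 without WT replicate 3. Car1, a carbonic anhydrase of early red cells, had 4.34, 2.46 and 0.832 CPM in the Mettl3KO libraries, against 99.3, 44 and 34.9 CPM in the WT libraries (-4.52 ± 0.69, adjusted p = 4.0e-04) and passed in all 6 of those fits. Car2, a related enzyme, fell by 0.88 and was lost without Mettl3KO replicate 2 (0.096) and WT replicates 1 (0.063) and 3 (0.077). Klf1 (-2.18 ± 0.58), Tspo2 (-4.31 ± 1.04) and Sphk1 fell as well. Klf1 was lost without Mettl3KO replicates 1 (0.076), 2 (0.12) and 3 (0.053) and WT replicates 1 (0.095) and 3 (0.055) and Tspo2 without Mettl3KO replicates 2 (0.082) and 3 (0.07). Gata1, the red cell and platelet master regulator, had 4.84, 5.31 and 13.4 CPM in the Mettl3KO libraries, against 15.5, 18.8 and 25.1 CPM in the WT libraries (-1.34 ± 0.78, adjusted p = 0.35).

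Megakaryocyte genes split, 3 of 24 rising and 1 falling (median 0.00). Beside Selp, Nfe2, a transcription factor of platelet formation, had 730.1, 722 and 918 CPM in the Mettl3KO libraries, against 443, 425 and 479 CPM in the WT libraries (0.82 ± 0.20, adjusted p = 0.016), lost without Mettl3KO replicate 3 (0.098) and WT replicates 1 (0.061) and 2 (0.069). Gp5, a platelet glycoprotein, rose by 1.78 and was lost without Mettl3KO replicates 1 (0.056), 2 (0.065) and 3 (0.15) and WT replicates 1 (0.16) and 2 (0.16). Vwf, the platelet adhesion factor, had 76.2, 60.6 and 51.7 CPM in the Mettl3KO libraries, against 33.9, 50.2 and 54.2 CPM in the WT libraries, which overlapped. Pf4, platelet factor 4, had 8.37, 33.2 and 23.2 CPM in the Mettl3KO libraries, against 27.9, 24.1 and 131 CPM in the WT libraries, which overlapped too (-1.50 ± 0.72, adjusted p = 0.24). Only Selp rose when Mettl3KO replicate 3, WT replicate 1 or WT replicate 2 was left out.

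Granulocyte and monocyte genes gave 2 rises and 1 fall among 24 (median 0.37). These are 8.33% and 4.17%, against 3.66% and 2.49% of all genes. Of this list 0 rose without Mettl3KO replicate 3 and 1 without Mettl3KO replicate 2 or any of the WT replicates. Cebpa, which directs granulocyte fate, had 21.6, 22 and 6.8 CPM in the Mettl3KO libraries, against 63, 95 and 37.5 CPM in the WT libraries (-1.95 ± 0.38, adjusted p = 0.0035). Cebpd rose by 2.19, lost without Mettl3KO replicates 2 (0.13) and 3 (0.069) and WT replicates 1 (0.12) and 2 (0.13), and the beta chain receptor Csf2rb by 1.16, lost without Mettl3KO replicate 3 (0.053) and WT replicate 3 (0.089). Elane and Mpo, granule enzymes, overlapped widely, Mpo with 83.2, 279 and 23.2 CPM in the Mettl3KO libraries, against 88.8, 36.8 and 182 CPM in the WT libraries. The summed level of 11 neutrophil markers was 86.4, 2123 and 35.4 CPM in the Mettl3KO libraries, against 224, 74.9 and 1583 CPM in the WT libraries. S100a8 (0.60 ± 1.81, adjusted p = 0.9) did not pass. S100a9 had 23.7, 758 and 12.9 CPM in the Mettl3KO libraries, against 65.9, 20.8 and 495 CPM in the WT libraries, so that neutrophil marker RNA was high in 1 library of each genotype, Mettl3KO replicate 2 and WT replicate 3. Its part in the other results was not tested.

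Class II antigen presentation genes formed a group noticed only after the values were seen, and its count is a description. Of 11 genes of the MHC class II pathway 5 passed downward (45.5%, against 2.49% of all genes, median -1.37). The number was 3 without Mettl3KO replicate 1 and WT replicate 2 together. H2-Aa, the alpha chain of the I-A molecule, had 10.2, 14.1 and 24.7 CPM in the Mettl3KO libraries, against 46.8, 71.8 and 110.2 CPM in the WT libraries (-2.22 ± 0.42, adjusted p = 0.003). H2-Eb1, the beta chain of I-E, had 5.06, 11.5 and 13 CPM in the Mettl3KO libraries, against 28.1, 43.6 and 65.1 CPM in the WT libraries (-2.22 ± 0.45, adjusted p = 0.0048). Cd74, the invariant chain that guards the class II groove, had 75.7, 165 and 195 CPM in the Mettl3KO libraries, against 309, 486 and 529 CPM in the WT libraries (-1.60 ± 0.37, adjusted p = 0.011). In these genes no Mettl3KO library reached the lowest WT library. H2-Ob, of the chaperone DO, fell by 2.31 ± 0.31, and H2-Ab1 by 1.37 ± 0.39, a call that held in 1 of the 6 fits that left out a library. Ciita, the coactivator that switches these genes on, had 8.27, 2.61 and 9.19 CPM in the Mettl3KO libraries, against 13.7, 18 and 16.1 CPM in the WT libraries (-1.25 ± 0.45, adjusted p = 0.11). Of 8 dendritic cell markers, a list also drawn up after the values were seen, Batf3 rose and Flt3 fell (median 1.07), 2 were higher and 1 lower unadjusted, and DESeq2 called 3. Batf3, a transcription factor of dendritic cells, had 0.101, 1.47 and 1.03 CPM in the Mettl3KO libraries, against 0, 0 and 0 CPM in the WT libraries and was at least 33.7-fold higher. The markers Itgax and Siglech had at most 1.35 and 0.0899 CPM in any HSC library, and the 8 markers summed to 21.9 to 31.9 CPM in the Mettl3KO libraries and 65.8 to 235 CPM in the WT libraries, most of it in WT from Flt3, which dendritic cells share with progenitors.

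The promoters of H2-Aa and H2-Eb1 are shown because these members moved together and class II promoters are known for a Y box, an inverted CCAAT element. The sequences are from RefSeq promoters of GRCm38.p6, 250 bases before to 50 after the gene start, 5′ to 3′ on the gene's strand, with the 8-base motif CTGATTGG in capitals.
H2-Aa promoter (chr17:34287774-34288073, minus strand): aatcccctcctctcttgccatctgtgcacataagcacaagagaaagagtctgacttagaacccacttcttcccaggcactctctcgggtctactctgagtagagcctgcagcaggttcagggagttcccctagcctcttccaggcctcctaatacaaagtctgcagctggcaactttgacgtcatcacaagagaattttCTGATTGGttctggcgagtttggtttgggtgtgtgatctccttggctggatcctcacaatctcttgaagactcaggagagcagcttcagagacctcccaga
H2-Eb1 promoter (chr17:34305617-34305916, plus strand): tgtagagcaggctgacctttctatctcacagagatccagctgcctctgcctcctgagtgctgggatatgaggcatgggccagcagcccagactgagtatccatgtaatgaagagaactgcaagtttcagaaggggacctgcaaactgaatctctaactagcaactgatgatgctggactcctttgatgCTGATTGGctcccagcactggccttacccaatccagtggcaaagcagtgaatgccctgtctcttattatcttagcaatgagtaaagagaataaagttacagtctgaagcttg
The motif began 51 bases before the start of H2-Aa and 62 before that of H2-Eb1. Searched on both strands, it was present in 1346 of 32851 promoters (4.10%) and in 4 of the 8 class II genes with an entry, H2-Aa, H2-Eb1, H2-Eb2 and H2-Oa. H2-Oa, at -0.24 ± 0.26, did not pass, and H2-Eb2 did not pass either. H2-Ob, which fell, held no match on either strand. A match describes these letters and is not a measured binding site.

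Some genes of ribosome production rose. Of 50 MYC target and ribosome biogenesis genes, 8 passed and all 8 were higher (median 0.31), with 4 without Mettl3KO replicate 3 or WT replicate 2, 5 without WT replicate 3 and 11 without Mettl3KO replicate 1. Ncl, the nucleolar protein nucleolin, had 1063, 1056 and 1134 CPM in the Mettl3KO libraries, against 538, 495 and 606 CPM in the WT libraries (0.99 ± 0.13, adjusted p = 9.2e-05). Rrs1, a ribosome assembly factor, had 142, 96.8 and 142 CPM in the Mettl3KO libraries, against 68.5, 55.4 and 71.7 CPM in the WT libraries (0.96 ± 0.15, adjusted p = 6.4e-04). Ncl and Rrs1 stood apart between genotypes with little spread within each. The repair enzyme gene Apex1 (1.25 ± 0.24) and the small subunit factor Imp3 (1.18 ± 0.24) also passed in every fit that left out a library. The others were the mitochondrial chaperone Hspd1 (0.54 ± 0.12), Mrto4 (0.89 ± 0.24), Ddx21 (0.55 ± 0.15) and Nolc1 (0.42 ± 0.12). Hspd1 was lost without Mettl3KO replicate 3 (0.056) and WT replicate 2 (0.052), Mrto4 without Mettl3KO replicates 2 (0.14) and 3 (0.09) and WT replicates 2 (0.14) and 3 (0.057), Ddx21 without Mettl3KO replicates 1 (0.076) and 3 (0.12) and WT replicates 1 (0.071), 2 (0.088) and 3 (0.11) and Nolc1 without Mettl3KO replicates 2 (0.14) and 3 (0.077) and WT replicates 1 (0.083), 2 (0.087) and 3 (0.12). Npm1, the nucleolar chaperone nucleophosmin, had 669, 1169.7 and 980.5 CPM in the Mettl3KO libraries, against 841, 460.3 and 919 CPM in the WT libraries, which overlapped (0.34 ± 0.24, adjusted p = 0.44).

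The MYC family genes themselves did not pass. In the MYC and MAX list of 12 genes, 0 passed by edgeR, whereas DESeq2 called 3, and 2 higher and 4 lower genes had an unadjusted p under 0.05 in edgeR. Mycn, the relative of Myc that HSC also express, had 414, 304 and 337 CPM in the Mettl3KO libraries, against 234, 172 and 191 CPM in the WT libraries (0.82 ± 0.27, adjusted p = 0.079). Mycn was thus higher in each Mettl3KO library while Myc was lower in each, and neither passed.

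The cell cycle lists gave few calls. Of 40 DNA replication and G1/S genes, 2 rose (5%, near the 3.66% of all genes, median 0.18). At an unadjusted p under 0.05 in edgeR, 8 of them were higher and 0 lower, and DESeq2 called 2. Fen1, the flap nuclease of replication, had 684, 499.9 and 596 CPM in the Mettl3KO libraries, against 244, 273 and 273 CPM in the WT libraries (1.17 ± 0.13, adjusted p = 2.8e-05). Tk1, the thymidine kinase, rose by 1.55 and was lost without Mettl3KO replicate 2 (0.067) and WT replicate 2 (0.064). Mcm2 and Mcm3, of the replicative helicase, did not pass, at 0.19 ± 0.23 and 0.11 ± 0.20. Of 30 mitosis genes 0 passed by edgeR and 0 by DESeq2, with 5 higher at an unadjusted p under 0.05 (median 0.40). Mki67, the proliferation antigen Ki-67, had 151, 287 and 154 CPM in the Mettl3KO libraries, against 112, 79.5 and 106 CPM in the WT libraries, above WT in each Mettl3KO library (0.99 ± 0.36, adjusted p = 0.11), whereas Top2a, the topoisomerase of dividing cells, overlapped (0.28 ± 0.35, adjusted p = 0.71). Among 17 cyclins, kinases and inhibitors, 2 rose, the inhibitor Cdkn1a and Cdk6, a kinase of cell cycle entry. The rise of Cdk6 was 0.87, lost without Mettl3KO replicate 2 (0.084) and WT replicates 1 (0.13) and 3 (0.1). Cdkn1c, the inhibitor p57 of resting stem cells, had 55.4, 64.9 and 46 CPM in the Mettl3KO libraries, against 101, 73.4 and 139 CPM in the WT libraries (-0.91 ± 0.33, adjusted p = 0.11), and its relative Cdkn1b overlapped (0.30 ± 0.28, adjusted p = 0.6).

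Cdkn1a is also a target of p53, and 5 of 33 p53 targets rose (15.2%, against 3.66% of all genes, median 0.21). The number was 2 without Mettl3KO replicate 3 or WT replicate 2 and 3 without WT replicate 1 or 3. Cdkn1a had 38.6, 79.6 and 77.9 CPM in the Mettl3KO libraries, against 8.51, 7.36 and 13 CPM in the WT libraries (2.76 ± 0.36, adjusted p = 9.2e-05). Phlda3, a repressor of AKT, had 24.7, 28 and 32.3 CPM in the Mettl3KO libraries, against 7.4, 3.09 and 3.83 CPM in the WT libraries (2.57 ± 0.34, adjusted p = 9.2e-05). Both were raised in every Mettl3KO library. The death effector Bax (1.24 ± 0.28) was lost without Mettl3KO replicates 2 (0.055) and 3 (0.055) and WT replicate 2 (0.061), Aen (0.74 ± 0.21) without Mettl3KO replicates 1 (0.051) and 3 (0.17) and WT replicates 1 (0.072), 2 (0.18) and 3 (0.051), and the long noncoding RNA Pvt1 (1.75 ± 0.47) without Mettl3KO replicate 3 (0.15) and WT replicates 1 (0.081), 2 (0.13) and 3 (0.062). Mdm2, the ligase that degrades p53, had 113, 52.7 and 65.6 CPM in the Mettl3KO libraries, against 101, 86 and 94.6 CPM in the WT libraries, which overlapped (-0.28 ± 0.32, adjusted p = 0.68). In the BCL2 family of 17, Bax was joined by the survival factor Bcl2l1, with 218, 171 and 225 CPM in the Mettl3KO libraries, against 116, 106 and 122 CPM in the WT libraries (0.84 ± 0.20, adjusted p = 0.013), lost without Mettl3KO replicate 3 (0.069) and WT replicate 2 (0.065). Bcl2 itself overlapped (-0.42 ± 0.20, adjusted p = 0.23).

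Interferon-stimulated genes are of interest because Mx1-Cre and pIpC both act through interferon. Of 50 tested, 5 rose (10%, against 3.66% of all genes, median 0.06), and 2 did without Mettl3KO replicate 3. Rtp4, an interferon-induced chaperone of receptors, had 87.4, 175 and 142 CPM in the Mettl3KO libraries, against 61.8, 45.6 and 51.9 CPM in the WT libraries (1.34 ± 0.25, adjusted p = 0.0027), and Isg15, a ubiquitin-like protein, had 19.1, 53.9 and 43.1 CPM in the Mettl3KO libraries, against 14.7, 9.47 and 10.2 CPM in the WT libraries (1.76 ± 0.35, adjusted p = 0.0041). The GTPases Igtp (1.25 ± 0.27) and Irgm1 (1.17 ± 0.26) were both lost without Mettl3KO replicate 3 (0.054 for Igtp and 0.067 for Irgm1), and Oasl1 (1.40 ± 0.38) without Mettl3KO replicate 3 (0.17) and WT replicates 1 (0.069), 2 (0.067) and 3 (0.12). Stat2, a transcription factor of the pathway, had 40.5, 54.3 and 41.2 CPM in the Mettl3KO libraries, against 41.6, 57.8 and 38 CPM in the WT libraries, which overlapped (-0.01 ± 0.30, adjusted p = 1). Among 17 sensors and editors of double-stranded RNA, Tlr7 fell as given above, the sensor Ifih1 fell by 1.17, lost without Mettl3KO replicates 2 (0.13) and 3 (0.083) and WT replicates 2 (0.12) and 3 (0.065), and the helicase Dhx9 rose by 0.69, lost without WT replicate 2 (0.054). Adar, the enzyme that edits such RNA, had 266, 220.5 and 138 CPM in the Mettl3KO libraries, against 157, 237 and 185 CPM in the WT libraries, which overlapped, and the sensor Ddx58 stood at -0.29 ± 0.23 (adjusted p = 0.52). Of 18 class I and immunoproteasome genes, H2-Q7 alone rose (5.56%, near the 3.66% of all genes). Its rise of 1.05 was lost without Mettl3KO replicate 3 (0.092) and WT replicates 1 (0.076) and 2 (0.077), and its close copies make the value uncertain. The class I chain genes H2-K1 (0.31 ± 0.16, adjusted p = 0.28) and B2m (-0.18 ± 0.18, adjusted p = 0.62) overlapped.

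Within the m6A machinery, Mettl3 and Wtap fell and Rbm15 rose among 7 writer genes. Rbm15, an adaptor that brings the writer to its RNA targets, had 44.4, 29.8 and 27.6 CPM in the Mettl3KO libraries, against 7.46, 9.22 and 12.2 CPM in the WT libraries (1.82 ± 0.26, adjusted p = 2.2e-04). Wtap, a scaffold of the complex, had 29.9, 26.1 and 27.1 CPM in the Mettl3KO libraries, against 61.4, 43.8 and 58.4 CPM in the WT libraries (-0.98 ± 0.22, adjusted p = 0.01), lost without Mettl3KO replicates 2 (0.053) and 3 (0.0502). Mettl14, the partner of Mettl3, had 31.7, 19.9 and 27.9 CPM in the Mettl3KO libraries, against 27.7, 33.2 and 31.5 CPM in the WT libraries, which overlapped (-0.22 ± 0.21, adjusted p = 0.6). Of 11 readers and erasers, 3 rose and 1 fell, and 1 rose without WT replicate 1. Ythdf2, which recruits the machinery that shortens poly(A) tails, had 409.5, 238 and 321 CPM in the Mettl3KO libraries, against 123, 152 and 113 CPM in the WT libraries (1.32 ± 0.27, adjusted p = 0.0049). The nuclear reader Ythdc1 (0.74 ± 0.17) was lost without Mettl3KO replicate 2 (0.064) and WT replicate 1 (0.07), Ythdf1 (0.91 ± 0.26) without Mettl3KO replicates 1 (0.17) and 3 (0.1) and WT replicates 1 (0.088), 2 (0.09) and 3 (0.15), and the falling Igf2bp2 (-2.65 ± 0.70) without Mettl3KO replicates 1 (0.057) and 2 (0.13) and WT replicate 3 (0.12). The demethylase Alkbh5 had 90.3, 26.2 and 68.5 CPM in the Mettl3KO libraries, against 66.6, 76.3 and 63.8 CPM in the WT libraries, which overlapped.

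Adhesion and cytokine receptor genes were led by genes already named. Of 20 adhesion and homing genes, 4 rose and 1 fell, and 2 rose without Mettl3KO replicate 2, WT replicate 1 or WT replicate 3. Pecam1, an adhesion molecule of HSC, platelets and endothelium, had 223, 150.1 and 203 CPM in the Mettl3KO libraries, against 73.2, 94.8 and 51.6 CPM in the WT libraries (1.39 ± 0.31, adjusted p = 0.0083). Vcan, a matrix proteoglycan, had 6.72, 12.1 and 5.58 CPM in the Mettl3KO libraries, against 0, 0.169 and 0 CPM in the WT libraries and was lost without Mettl3KO replicate 2 (0.057) and WT replicates 1 (0.086) and 3 (0.084), and Selplg, the ligand of Selp, rose by 0.43 and lost its call in each fit that left out a library. Sele, the endothelial E-selectin, was near 0, with 0, 0 and 0 CPM in the Mettl3KO libraries, against 0, 0.74 and 0 CPM in the WT libraries (adjusted p = 0.21). Of 38 cytokine receptors, 4 rose (10.5%, against 3.66% of all genes) and 2 fell, Flt3 among them (5.26%, against 2.49%). The number that rose was 1 without Mettl3KO replicate 3 or WT replicate 3. Csf2rb is given above. Il2rg, the shared gamma chain of interleukin receptors, had 276, 253 and 306 CPM in the Mettl3KO libraries, against 156, 157 and 149 CPM in the WT libraries (0.85 ± 0.17, adjusted p = 0.0049). Ifngr2 (0.89 ± 0.25) was lost without Mettl3KO replicates 2 (0.16) and 3 (0.083) and WT replicates 2 (0.079) and 3 (0.14), and Tnfrsf1a (0.64 ± 0.17) without Mettl3KO replicate 3 (0.086) and WT replicates 1 (0.066) and 3 (0.088). Among 13 cytokine signaling inhibitors, the phosphatase gene Ptpn6 fell by 0.46 and lost its call in each fit that left out a library. Socs2, an inhibitor of growth hormone and cytokine signals, had 177, 272 and 206 CPM in the Mettl3KO libraries, against 129.7, 45.8 and 121 CPM in the WT libraries, with no overlap (1.15 ± 0.41, adjusted p = 0.11), and Socs1 overlapped (0.47 ± 0.29, adjusted p = 0.39).

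Metabolic and stress lists gave few calls. Of 28 glycolysis and creatine genes 2 rose and 1 fell, and 0 rose without WT replicate 1 and 1 without any other library. The fall was in Ldhb, a lactate dehydrogenase chain, with 36.6, 42.4 and 38 CPM in the Mettl3KO libraries, against 87.4, 69.1 and 97.8 CPM in the WT libraries (-1.12 ± 0.25, adjusted p = 0.0084). The creatine transporter Slc6a8 had 3.8, 12.9 and 8.82 CPM in the Mettl3KO libraries, against 0, 0 and 0.0709 CPM in the WT libraries and was lost without WT replicates 1 (0.08) and 2 (0.082), and the hexokinase Hk3 (0.97 ± 0.27) without Mettl3KO replicates 1 (0.068), 2 (0.093) and 3 (0.06) and WT replicates 1 (0.1) and 3 (0.15). The hexokinases Hk1 (-0.23 ± 0.32, adjusted p = 0.75) and Hk2 (-0.55 ± 0.33, adjusted p = 0.36) did not pass. Of 24 immediate early genes, Ier2 and Dusp2 were the 2 that fell, with 0 without any single Mettl3KO replicate or WT replicate 3 and 4 without WT replicate 1. At an unadjusted p under 0.05 in edgeR, 7 genes of that list were lower and 0 higher, and DESeq2 called 4. The median of the list was -1.35 in HSC, and -1.13, -1.24 and -1.22 in MPP1, MPP2 and MPP4. Fos had 174, 699 and 408 CPM in the Mettl3KO libraries (-1.92 ± 0.98, adjusted p = 0.27). In the WT libraries Fos had 279, 1352 and 3200.1 CPM, with WT replicate 3 far above the rest. Fosb stood at -1.22 ± 0.94 (adjusted p = 0.51). Integrated stress and unfolded protein response genes gave 0 of 30 by edgeR, 0 by DESeq2, and 1 higher and 3 lower before adjustment (p under 0.05), with Atf4 at -0.30 ± 0.28 and Ddit3 at -0.58 ± 0.36. Heat shock genes gave 0 of 12, with 4 higher unadjusted and 1 by DESeq2, and the inducible chaperone genes Hspa1a (2.68 ± 1.40) and Hspa1b (2.08 ± 1.40) are near-identical copies whose reads may be split. Polarity and asymmetric division genes gave 0 of 27, with 3 higher and 2 lower unadjusted and 0 by DESeq2, and the fate determinants Numb and Numbl stood at -0.33 ± 0.26 and -0.07 ± 0.35. Notch pathway and ID genes gave 0 of 20, with 1 higher and 1 lower unadjusted and 3 by DESeq2, and the receptors Notch1 and Notch2 stood at -0.87 ± 0.30 and -0.32 ± 0.37.

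Markers of cells that the gate should not hold differed in level among lists and libraries. The summed level of 12 T and NK cell markers was 22.5 to 43.2 CPM in the Mettl3KO libraries and 41.6 to 48.2 CPM in the WT libraries, and 0 passed by edgeR, by DESeq2 or at an unadjusted p under 0.05. B and plasma cell markers summed to 34.6 to 40.5 CPM in the Mettl3KO libraries and 31.3 to 51.3 CPM in the WT libraries, and 1 of 12, Blnk, fell, with 3 higher and 2 lower unadjusted, 5 called by DESeq2 and a median of 0.47. Macrophage markers summed to 93.4 to 121 CPM in the Mettl3KO libraries and 68.5 to 328 CPM in the WT libraries, with 0 of 14 passing by edgeR, 3 lower unadjusted and 1 by DESeq2. The summed neutrophil markers, given above, reached 2123 CPM in Mettl3KO replicate 2 and 1583 CPM in WT replicate 3. Of 11 neutrophil markers 0 passed by edgeR or DESeq2, with 1 higher unadjusted, and of 10 mast cell and basophil markers 0 passed by edgeR, with 3 higher unadjusted and 2 by DESeq2. Endothelial and stromal markers summed to 319 to 472 CPM in the Mettl3KO libraries and 255 to 350.3 CPM in the WT libraries, with Pecam1 rising and Emcn falling among 18, both genes that HSC express, 1 higher and 5 lower unadjusted, 3 called by DESeq2 and a median of -1.91. The T cell receptor genes Cd3d and Cd3e had at most 0.959 and 0.03 CPM in any HSC library, and the basophil genes Mcpt8 and Prss34 at most 0.78 and 0.211 CPM. The B cell gene Cd79b had 29.7, 30.3 and 35.4 CPM in the Mettl3KO libraries, against 43.4, 26.7 and 31.6 CPM in the WT libraries, and the macrophage gene Cd68 had 52.6, 66.3 and 63.9 CPM in the Mettl3KO libraries, against 53.5, 11.5 and 15.6 CPM in the WT libraries, and both overlapped. The endothelial genes Cdh5 and Kdr had at most 0.581 and 4.68 CPM in any HSC library. All 24 libraries had Xist and at most 4 counts of any of 4 genes of the Y chromosome.

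**Figure D3:**
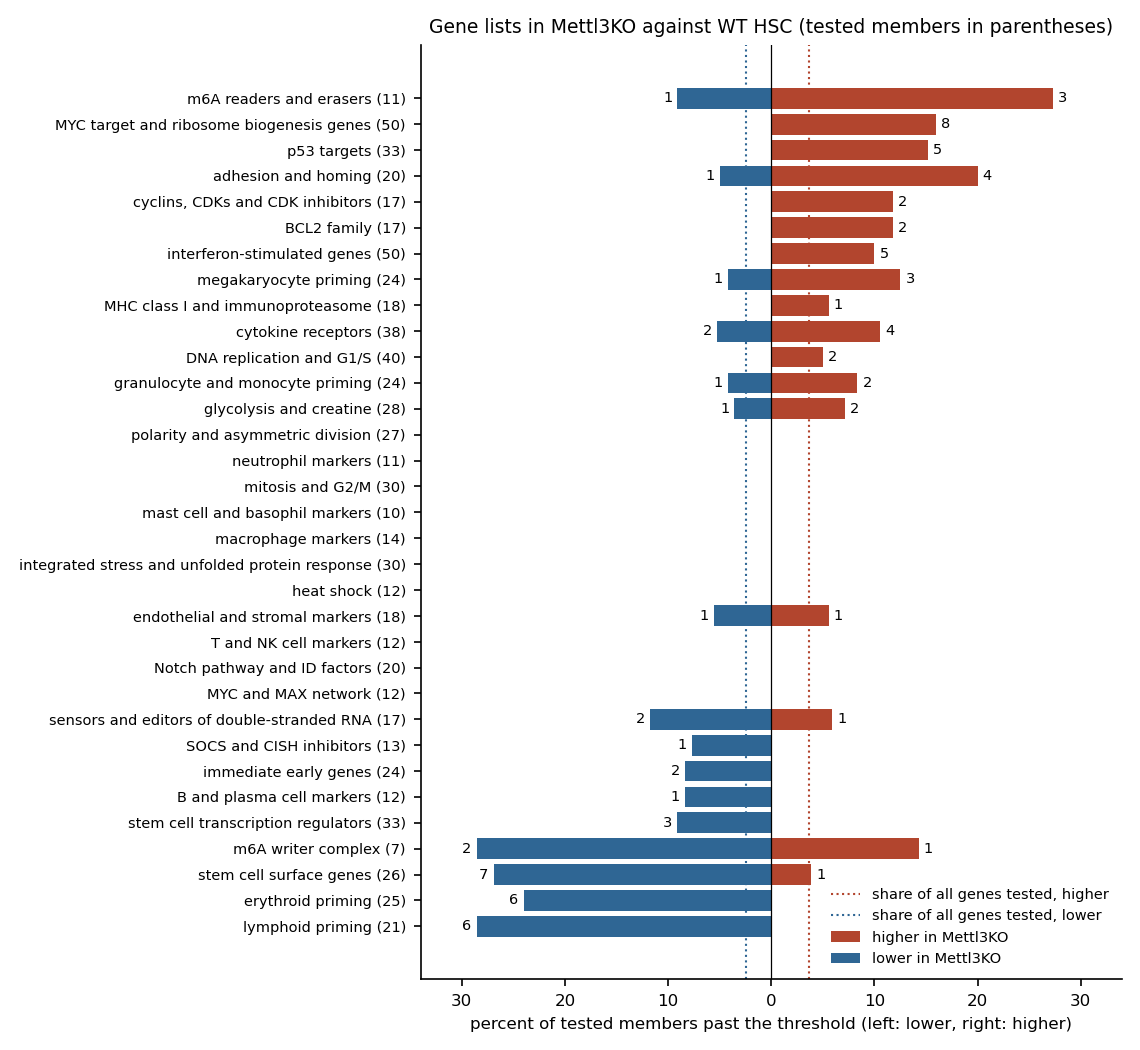
Share of tested members that passed the threshold in HSC, for each gene list except the class II, dendritic, Serpina3 and sex-linked genes. The class II, dendritic and Serpina3 genes were grouped after their values were seen. Lower in Mettl3KO is to the left (blue) and higher to the right (red). The number of genes stands at the end of each bar and the list size in parentheses. Dotted lines mark the shares over all genes tested, 3.66% higher and 2.49% lower, and the m6A writer complex, with 2 of 7, and the lymphoid, surface and erythroid genes reach furthest to the left of the lists drawn.

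Most genes that changed in HSC had a fold change of the same sign in the progenitors. Of the 569 genes higher in Mettl3KO HSC 93.8% did in MPP1, 97.4% in MPP2 and 70.3% in MPP4, and of the 387 genes lower 92.8%, 98.2% and 74.4% did. Over all genes tested, 50.5%, 47.9% and 48.1% had a fold change above 0 in these populations, and 48.4%, 51.6% and 51.0% below 0. Fewer of the genes changed in HSC passed the threshold there. Of the 569 genes higher in Mettl3KO HSC, 254 (44.6%) were also called higher in MPP1, where 8.63% of all genes passed and 4.74% were higher, and 179 (31.5%) in MPP2, against 1.51% of all genes. They made up 34.5% of the 737 genes called higher in MPP1 and 76.5% of the 234 in MPP2. In MPP4, where 3.13% of all genes passed, the overlap was 25 genes (4.39%), against 1.03% of all genes. Of the 387 genes lower in HSC, 162 were called lower in MPP1, 86 in MPP2 and 68 in MPP4, where 3.89%, 0.965% and 2.1% of all genes were. The contrasts share no library, and all were read from 1 fit with 1 estimate of the spread. They may share mice, which the labels do not say. Rn45s took 5.5%, 5.1% and 5.5% of the counts in Mettl3KO replicate 2 of HSC, MPP1 and MPP2, and 2.2% in that of MPP4. The part of shared mice or handling in the agreement, and in the differences below, was not tested.

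A set of 12 genes was called higher and 28 lower in all 4 populations. Selp was among the first group, with log2 fold changes of 2.41 ± 0.29 in HSC, 3.19 ± 0.30 in MPP1, 2.44 ± 0.30 in MPP2 and 1.18 ± 0.28 in MPP4. Zfp948, a zinc finger gene, rose by 2.79, 4.18, 2.69 and 1.60 in the same order, and the glycosyltransferase gene B3gnt8 by 2.83, 2.82, 1.87 and 1.48. C2cd4b, Rbm15, Fen1, Ncl, Rrs1, Bcl2l1, Csf2rb, Cdv3 and Tnfaip8l1 were the other nine. Among the 28 that fell, beside Mettl3, Hlf fell in that order by 1.91, 1.49, 1.96 and 2.44, and Ctla2a by 2.29, 3.50, 1.52 and 2.47. Emcn, the cytokine gene Il15, Ldhb and the protease gene Klk8 fell with them. So did the chemokine Ccl3, with 4.66, 3.6 and 1.91 CPM in the Mettl3KO libraries, against 45.5, 42.2 and 15.1 CPM in the WT libraries of HSC (-3.33 ± 0.52, adjusted p = 5.1e-04), the secreted inhibitor Serpinf1 (-3.16 ± 0.33, adjusted p = 1.4e-05) and the growth factor Gdf3 (-2.76 ± 0.37, adjusted p = 1.3e-04).

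**Figure D4:**
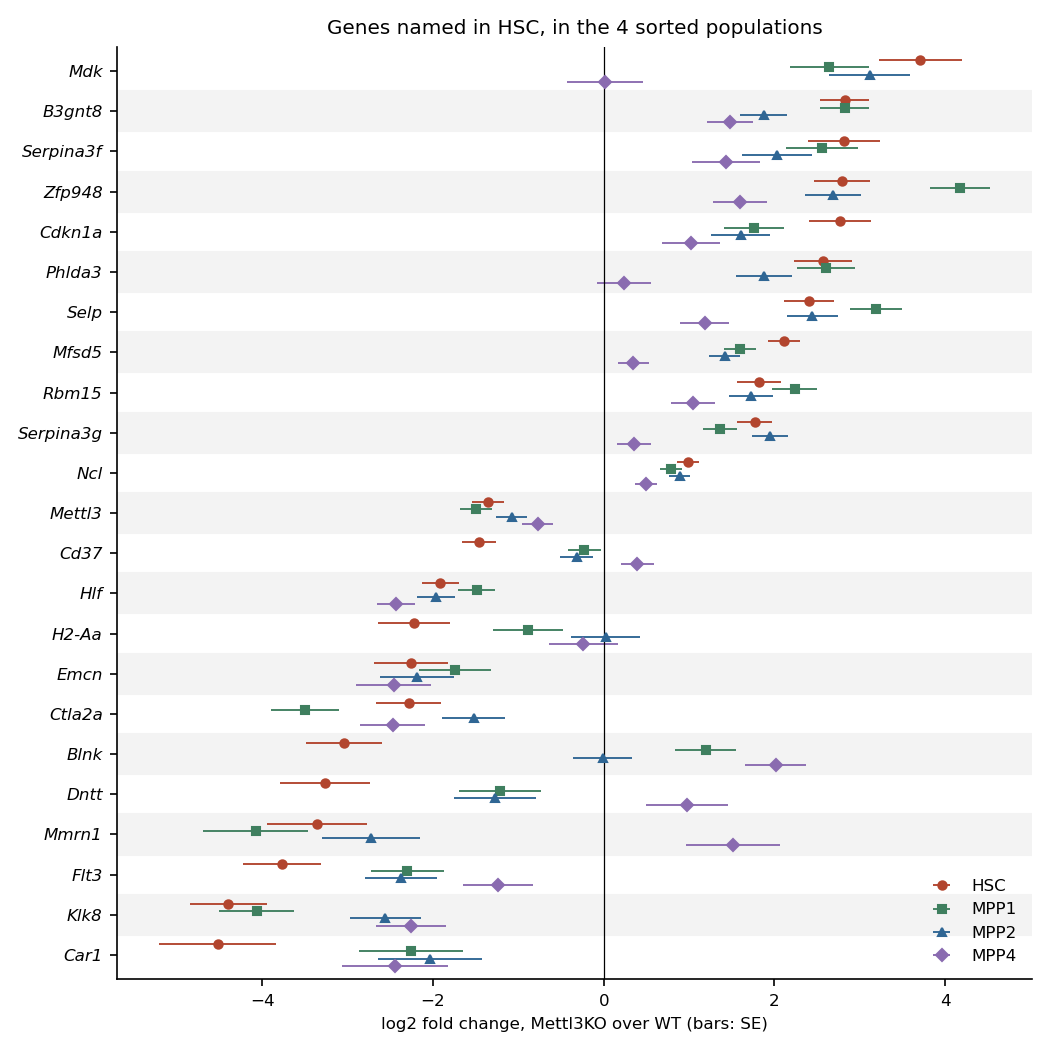
Log2 fold changes of Mettl3KO over WT with their SE for 23 genes in HSC, MPP1, MPP2 and MPP4. Selp, Rbm15, Hlf and Ctla2a lie on the same side of 0 in all 4 populations, whereas Blnk, Dntt and Mmrn1 lie below 0 in HSC and above 0 in MPP4.

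The response of HSC was set against each MPP response by a test of the difference of the 2 log2 fold changes. It differed from MPP4 in 241 of 15545 genes (1.55%), 146 with a higher (0.939%) and 95 with a lower value in HSC (0.611%), from MPP1 in 6 genes (0.0386%), 5 of them with a lower value in HSC (0.0322%), and from MPP2 in 1 gene (0.00643%). Unadjusted p values under 0.05 were found for 1607 genes against MPP1 and 557 against MPP2, and the count against MPP1 was 18 without Mettl3KO replicate 1. Of the 241 genes, 150 were called in HSC and 76 in MPP4, 185 had fold changes of opposite sign, and 10 were called in both with opposite sign. The number depended on single libraries, with 771 genes without Mettl3KO replicate 1, 76 without Mettl3KO replicate 3, 104 without Mettl3KO replicate 2, 115 without WT replicate 1 and 126 without WT replicate 2, and on the replicate block, as given in the closing section.

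The gene with the lowest adjusted p for the difference from MPP4, and also from MPP1, was Blnk. This adaptor of B cell receptor signaling had 0.321, 0.06 and 0.361 CPM in the Mettl3KO libraries, against 2.89, 1.99 and 1.54 CPM in the WT libraries of HSC. It fell by 3.04 ± 0.44 in HSC (adjusted p = 2.6e-04) and rose by 2.01 ± 0.35 in MPP4 (adjusted p = 0.0033), and the difference of -5.06 ± 0.57 had an adjusted p of 2.9e-04. Against MPP1, where Blnk changed by 1.19 ± 0.36, the difference was -4.24 ± 0.57 (adjusted p = 0.0052). The call in HSC was lost in the fit of the HSC libraries alone, as given above. The recombinase genes Rag1 and Rag2, the surrogate light chain gene Vpreb1 and the receptor chain gene Cd79a also differed from MPP1, by -7.69 ± 1.16, -6.76 ± 1.01, -4.90 ± 0.71 and -2.67 ± 0.47. Their levels in HSC were at most 0.174 CPM for Rag1, 1.52 for Rag2, 1.51 for Vpreb1 and 1.47 for Cd79a. Of these 4, Rag2 alone passed in HSC, and Cd79a stood above 0 there, at 1.12 ± 0.35. Blnk was thus lower in Mettl3KO HSC and higher in Mettl3KO MPP1 and MPP4. Of the 21 lymphoid priming genes, 6 fell and 0 rose in HSC, 2 fell and 7 rose in MPP1, 3 fell and 0 rose in MPP2, and 0 fell and 2 rose in MPP4.

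Genes of higher level differed as well. Mfsd5 rose by 2.11 ± 0.19 in HSC and stood at 0.34 ± 0.18 in MPP4, a difference of 1.77 ± 0.26 (adjusted p = 0.0034). Dpp4, a protease of the cell surface that clips chemokines, had 7.73, 2.25 and 3.27 CPM in the Mettl3KO libraries, against 44.2, 67.5 and 49.6 CPM in the WT libraries of HSC (-3.59 ± 0.49, adjusted p = 1.5e-04). Its log2 fold change in MPP4 was 1.14 ± 0.45, and the difference was -4.73 ± 0.66 (adjusted p = 0.0021). Emp1, a membrane protein of epithelia, had 0.0338, 0.57 and 0 CPM in the Mettl3KO libraries, against 10.3, 11.9 and 4.56 CPM in the WT libraries of HSC (-5.62 ± 0.77, adjusted p = 1.5e-04), and 1.68 ± 0.58 in MPP4 (adjusted p of the difference = 0.0014). Serpina3g rose by 1.77 in HSC, 1.36 in MPP1 and 1.95 in MPP2 but stood at 0.35 ± 0.20 in MPP4, and that difference from HSC passed as well (adjusted p = 0.015).

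Genes that differ between WT MPP4 and WT MPP1 were grouped without use of any HSC library. How far this contrast reflects commitment, lineage or cell division was not tested. Between WT MPP1 and WT MPP4, 721 genes (4.64%) differed, 429 higher (2.76%) and 292 lower (1.88%) in WT MPP4. Of the 429 higher in WT MPP4, 41 rose (9.56%) and 16 fell (3.73%) in Mettl3KO HSC, so that 71.9% of those called rose. Of the 292 lower in WT MPP4, 17 rose (5.82%) and 30 fell (10.3%), so that 36.2% of those called rose, against 59.5% of all genes called. As examples picked after the values were seen, from genes that passed in all 6 fits that left out a library, the rises of the first group included Fen1, Exo1 and Dbf4, and its falls H2-Aa, H2-Eb1, Cd74, Dntt and Blnk. In the second group the falls included Mmrn1, Hlf and Il15, and the rises Itga6. Without WT replicate 1 the share of called genes that rose in the second group was 18.2%, and without WT replicate 3 it was 50.0%.

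Genes with few exons rose more often than genes with many. The features come from the longest coding transcript of the annotation, matched for 13787 of 15545 genes, of which 3.86% rose and 2.57% fell. In the quintile with the fewest exons (median 3) 7.69% rose and 2.07% fell, against 1.78% and 2.10% in the quintile with the most (median 23). The share that rose was 4.75%, 2.87% and 2.21% in the quintiles between. The share fell with exon number within transcripts of like length too. At a median length of about 2 kb, 9.36% rose where exons were fewest, 4.03% in the middle tertile and 2.94% where exons were most. At lengths near 4 kb the shares were 4.57%, 2.18% and 1.31%. In MPP2 the shares that rose were 3.55% in the lowest quintile and 1.05% in the highest. In MPP1 the ends lay close together, with 6.31% rising in the lowest quintile and 6.35% in the highest, and in MPP4 they were 1.09% and 1.38%.

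Since exon junctions keep m6A off nearby sequence, the marked adenosines lie mostly in long exons and around the stop codon. The share that rose did not order by the longest exon, with 2.79% in the lowest quintile and 3.59% in the highest. By density of GGACT, the commonest core of the motif that Mettl3 marks, 5.91% rose in the highest quintile (median 2.15 per kb) and 3.16% to 3.48% in the other four. Across genes the correlation of the log2 fold change with this density was weak (Spearman 0.05, Pearson 0.03), and with exon number it was -0.13 and -0.04, and genes are not independent replicates. The share that rose also went with GC content, 5.80% in the highest quintile and 2.36% in the lowest. The length trends of single libraries given at the start concern the same features, and their part was not tested. Without Mettl3KO replicate 1 and WT replicate 2, the ratio of the lowest to the highest quintile of exon number was 4.05, against 4.33 with all libraries, and it was 8.30 without WT replicate 1 and 7.42 without Mettl3KO replicate 2.

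**Figure D5:**
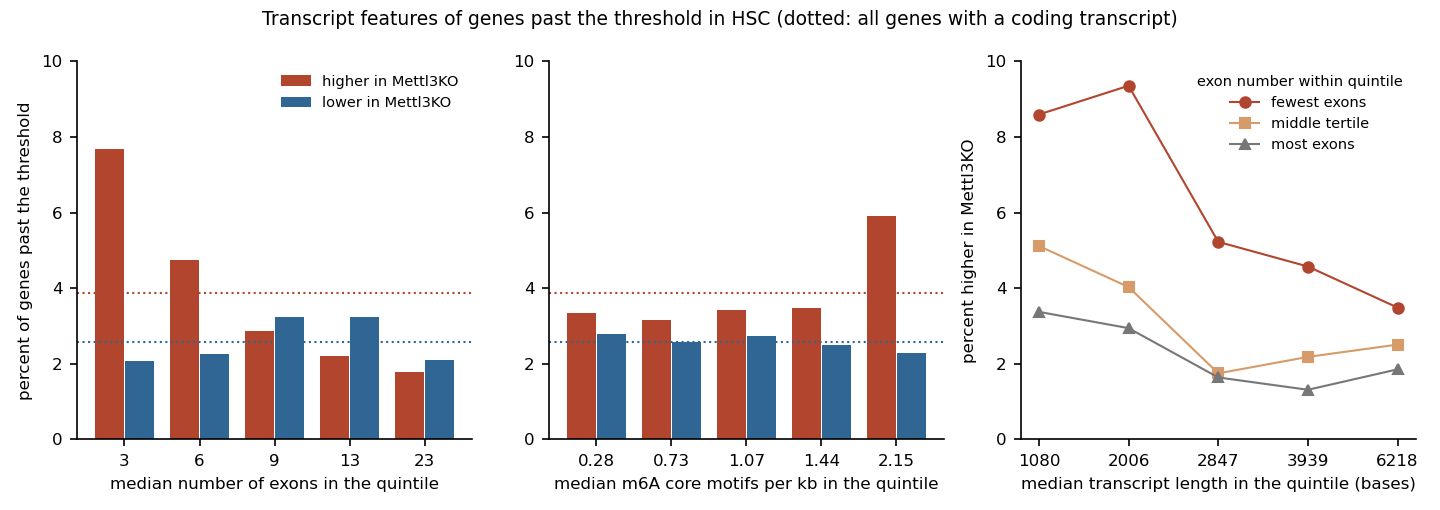
Percent of genes higher (red) and lower (blue) in Mettl3KO HSC by quintiles of exon number and of the density of the m6A core motif, with dotted lines at the shares over all genes with a coding transcript, and at the right the percent higher by quintiles of transcript length, split by exon number within each quintile. The share that rose goes from 7.69% at a median of 3 exons to 1.78% at 23, and the genes with the fewest exons lie uppermost in each of the 5 length groups.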

How the data were processed

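Bulk poly(A) RNA of sorted populations was amplified with a SMARTer kit and sequenced as paired 50 bp reads, per the labels' protocols. The submitters' processing notes name mm10, GRCh37, TopHat, Bowtie and Cell Ranger 2.2 without saying what each was used for. The counting tool, and whether strand was used, is not given in the sources used here. The table the authors deposited is named for FPKM but holds whole-number counts per gene, with 24063 gene rows, and was used as counts. The 24 bulk libraries were fitted together with edgeR 4.0.16 in R 4.3.3 (quasi-likelihood test, filterByExpr, TMM scaling, 1 mean for each of 8 groups, 16 residual degrees of freedom), with Benjamini-Hochberg adjustment over the 15545 genes kept. Differences between responses were contrasts of the same fit. The fit was first tested on simulated counts, with known folds put into well-measured genes. The simulation gave every gene the same spread and held no length trends of single libraries, so it does not cover such trends. Alternatives were RLE scaling, no filter, DESeq2 1.42.0, the replicate number as a block, the 6 HSC libraries alone and leaving out each HSC library. The fit without Mettl3KO replicate 1 and WT replicate 2 was chosen after seeing the data. Gene positions and transcript features were read from GENCODE vM21 (GRCm38). Genes were named by rule: 10 with the largest change in each direction among those called without overlap of the libraries at a mean of at least 10 CPM in the higher genotype, 10 more at 100 CPM over the HSC libraries, called list members, the first 2 of each list and the 5 most significant of each difference. Genes named outside it were chosen after their values were seen. The members and gene lists were chosen with earlier results of these data known. Depth was 33012524 to 55276836 counts per HSC library. Some results of the lists are not reported here.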

Additional observations from a re-analysis of the deposited data

Results flagged for a closer look

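The response of HSC differed from that of another population, by the test of the difference itself, for the genes below. Against MPP1 the difference of log2 fold changes was -4.24 ± 0.57 for Blnk, -2.67 ± 0.47 for Cd79a, -7.69 ± 1.16 for Rag1, -6.76 ± 1.01 for Rag2 and -4.90 ± 0.71 for Vpreb1 (edgeR adjusted p = 0.0052, 0.034, 0.0063, 0.0063 and 0.0063). Cd79a is the one of these outside the naming rule, and it had a fold change of 1.12 ± 0.35 in HSC and 3.80 ± 0.33 in MPP1. Zfp133-ps, a pseudogene, differed by 9.71 ± 1.55 (adjusted p = 0.019), with 0.28 ± 0.85 in HSC and a fitted -9.43 in MPP1, and as a pseudogene it may share reads with its parent gene.

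Gcsam differed by -9.999 ± 1.12 from MPP2 (adjusted p = 0.0017) and by -10.07 ± 1.12 from MPP4 (adjusted p = 7.4e-04). These fitted values depend on the prior count because the gene had 0 counts in all 3 Mettl3KO HSC libraries, and in MPP2 and MPP4 its fold changes were -0.45 ± 0.50 and -0.37 ± 0.50. Against MPP4 the difference was -5.06 ± 0.57 for Blnk, -4.73 ± 0.66 for Dpp4, -7.30 ± 0.97 for Emp1 and 1.77 ± 0.26 for Mfsd5 (adjusted p = 2.9e-04, 0.0021, 0.0014 and 0.0034).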

How the results depend on the processing

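The count of genes changed in HSC was 975 with RLE scaling, 846 without a filter, 1729 with DESeq2 and 522 in a fit of the 6 HSC libraries, and ranged from 454 to 1275 with 1 library left out. The replicate numbers did not pair the HSC libraries, whose same-number deviations correlated at -0.271, -0.45 and 0.181. Across unlike numbers the correlations ranged from -0.515 to 0.623, the highest for Mettl3KO replicate 1 with WT replicate 2. Mettl3KO replicate 2 with WT replicate 3 gave 0.416. A block by replicate number joins same-number libraries and cannot take up these matches. With the replicate number as a block the count was 528, and 33 in the HSC libraries alone, where few degrees of freedom are left. The block gave 6, 0 and 4 genes for the differences from MPP1, MPP2 and MPP4, against 6, 1 and 241. With libraries left out these differences ranged from 4 to 18, 1 to 3 and 76 to 771 genes, and without Mettl3KO replicate 1 and WT replicate 2 together they were 14, 3 and 367.

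The share of called genes that rose among those lower in WT MPP4 ranged from 18.2% to 50.0% with libraries left out. The ratio of the shares that rose in the lowest over the highest quintile of exon number ranged from 3.30 to 8.30. For density of the m6A core motif that ratio was 0.564 and was 0 in the HSC libraries alone with the block.

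Of 133 called genes among 189 named by rule, 75 passed in all 6 fits that left out 1 library, 0 were lost with DESeq2, 2 with RLE scaling, 7 without a filter, 40 with the block, 38 in the HSC libraries alone and 111 there with the block, and 0 changed sign in any setting. Changes of sign were found in 17 genes that were not called, for which the log2 fold change with libraries left out ranged, in Atf4 -0.49 to 0.11, Cd79b -0.23 to 0.13, Elane -1.64 to 1.25, Hk1 -0.62 to 0.033, Mcm2 -0.096 to 0.42, Mcm3 -0.14 to 0.32, Mecom -0.12 to 0.31, Mpo -0.94 to 1.03, Notch2 -0.80 to 0.26. The same range was, in Numbl -0.20 to 0.18, Prss34 -1.57 to 1.59, S100a8 -3.25 to 2.51, S100a9 -3.39 to 2.60, Stat2 -0.15 to 0.26, Tsix -0.41 to 0.53, Xist -0.43 to 0.16 and Zfp133-ps -0.12 to 0.57. With the replicate block, in all libraries and in the HSC libraries alone, it was -0.54 and -0.54 in Elane, -0.061 and -0.063 in Mpo, -1.20 and -1.21 in S100a8 and -1.20 and -1.20 in S100a9, and without a filter it was 0.0026 in Stat2. For Sele without WT replicate 2 and Cd3e without Mettl3KO replicate 2 no value could be given. The causes were not tested. Precision is limited by 3 mice a genotype, and at low levels by counting.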
